A study of Mus musculus with 95 samples.

Results

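Genes of early lymphoid priming were followed across populations of mouse blood stem and progenitor cells, at rest and after transplantation. The 10 genes, taken by symbol from the 53465 gene entries of the raw count table, were Flt3, Il7r, Ccr9, Dntt, Rag1, Rag2, Ighm, Ly6d, Cnn3 and Il12a, and all 10 were found. RNA was measured in bulk by SMART-Seq v4, which amplifies full-length cDNA from few cells, in 95 libraries of bone marrow cells labelled HSC (haematopoietic stem cells), HPC-1 or HPC-2 (haematopoietic progenitor populations), all from B6.SJL mice labelled as aged 8 to 12 weeks. Steady-state libraries came from untreated mice, with 8 libraries for HSC, 8 for HPC-1 and 7 for HPC-2. The transplanted libraries, 3 per population and week, came from mice given 900 cGy of irradiation and then 8000 Lin-Sca1+Kit+ marrow cells, and were taken 3, 4, 5, 6, 8, 10, 13 or 16 weeks later. The labels give the same CD48-CD150+ sort gate for all populations, and they do not say how donor cells were told from cells the host still had.

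Multipotent progenitors begin to transcribe lymphoid genes at a low level before they commit to the B or T lineage, a state known as lymphoid priming. It starts with the cytokine receptor Flt3, followed by the recombination machinery that later assembles antigen receptor genes and by the interleukin 7 receptor on which B and T cell precursors depend. Such transcripts are low or absent in long-term stem cells and in progenitors biased to megakaryocytes, erythroid or myeloid cells.

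Upstream stretches of 3 of the genes are shown because the genes stood for the 3 patterns that follow: Dntt was present in every HPC-1 library, Rag2 had no count in any steady-state HSC library, and Il12a was present in all populations. Each is the 250 bases before the RefSeq start on GRCm38.p6, 5′ to 3′ on the gene's strand, which is the plus strand for all 3. Capitals mark the E-box CANNTG, the letters bound by E proteins such as E2A, and TGGGAA, the core letters of Ikaros sites, searched on both strands.
Dntt, chr19:41029025-41029274: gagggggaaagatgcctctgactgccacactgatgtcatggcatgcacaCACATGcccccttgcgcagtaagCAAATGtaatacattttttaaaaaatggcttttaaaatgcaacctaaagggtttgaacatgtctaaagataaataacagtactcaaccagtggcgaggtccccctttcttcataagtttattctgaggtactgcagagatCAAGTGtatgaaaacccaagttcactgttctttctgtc
Rag2, chr2:101624462-101624711: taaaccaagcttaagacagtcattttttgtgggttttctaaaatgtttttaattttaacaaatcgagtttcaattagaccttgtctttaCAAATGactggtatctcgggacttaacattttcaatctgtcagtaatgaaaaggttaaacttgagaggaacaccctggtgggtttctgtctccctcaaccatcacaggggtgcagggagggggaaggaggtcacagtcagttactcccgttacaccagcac
Il12a, first of its 2 starts, chr3:68690394-68690643: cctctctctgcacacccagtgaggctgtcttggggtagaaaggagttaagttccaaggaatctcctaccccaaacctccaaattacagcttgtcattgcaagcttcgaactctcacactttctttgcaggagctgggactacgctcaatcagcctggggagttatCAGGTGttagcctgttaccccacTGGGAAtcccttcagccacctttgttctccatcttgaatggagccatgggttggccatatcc
The 3 stretches held 3, 1 and 1 E-boxes, and TGGGAA stood in that of Il12a. RefSeq starts were found for 8 of the 10 genes (not Ighm and Ly6d), with 9 starts in all. CANNTG was found in 8 of these 9 stretches, against 66.22% of 32851 mouse promoters of the same length, and TGGGAA in 2 of 9 (Rag1 and the first start of Il12a), against 21.59%. The 2 motifs did not overlap in the stretches printed here.

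Total counts ran from 3551908 to 8492759 per library (median 5628592). Fewer than 10000 genes were detected in 12 libraries (5 HSC, 7 HPC-2 and no HPC-1), among them 4 of the 7 steady-state HPC-2 libraries and 3 of the 8 steady-state HSC libraries. In 6 pairs of libraries with different labels the counts were nearly the same (chi-square per degree of freedom 1.24 to 4.50, against at least 15.1 in the other pairs among 4465). Of these pairs 3 joined an HPC-1 library (steady-state replicate 7, replicate 2 at 13 weeks and replicate 1 at 5 weeks) with one labelled HPC-2 (in the same order, replicates 7 and 5 at steady state and replicate 2 at 8 weeks). Dntt stood at 412, 184 and 638 CPM (counts per 1000000 counts of the library) in the HPC-1 libraries of these pairs and at 410, 185 and 599 CPM in the libraries labelled HPC-2. The other pairs lay within HPC-1 (replicates 3 at 8 and at 10 weeks), within HPC-2 (replicate 1 at 4 weeks and replicate 2 at 5 weeks) and across HSC (replicate 1 at steady state) and HPC-2 (replicate 1 at 13 weeks). No label was changed, and the counts of called members in HPC-1 and the correlations are given with and without these libraries.

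Counts of the lymphoid priming genes lay mainly in HPC-1. Of the 10 genes, each steady-state HPC-1 library had counts for 8 to 10 (median 10), each steady-state HSC library for 1 to 5 (median 2.5), and each steady-state HPC-2 library for 0 to 10 (median 1). Over all genes, these libraries detected 12641 to 15384 (HPC-1), 7779 to 14940 (HSC) and 3827 to 13051 (HPC-2). The HPC-2 library with counts for all 10 was replicate 7, of a near-identical pair. After transplant the range was 6 to 10 in HPC-1, 1 to 6 in HSC and 0 to 8 in HPC-2. The transplanted libraries detected 10485 to 15697 genes in HPC-1, 6628 to 14406 in HSC and 4903 to 14985 in HPC-2. The part of these differences in the members' counts was not tested. Per kilobase of exon, the steady-state medians in HPC-1 were highest for Il12a (520 CPM per kb), Ighm (503) and Dntt (366), whose ranges overlapped. Ly6d (101), Cnn3 (52.6), Flt3 (29.8), Rag2 (23.5) and Il7r (10.1) followed, each overlapping with its neighbours in this order. Ccr9 (1.76) and Rag1 (0.297) were lowest, in ranges that also overlapped. Both share exon bases with other genes, so their levels and rank are uncertain. In bulk RNA, fewer cells of a type and less RNA per cell cannot be told apart. Summed markers of plasmacytoid dendritic cells also had a higher steady-state median in HPC-1 (226 CPM) than in HSC (71.0) and HPC-2 (62.3). Medians for mature B, plasma, and T and NK cells were likewise highest in HPC-1, and those for granulocytes and monocytes and for erythroid cells were not. Ranges overlapped in each of these lists, and the part of such cells was not tested.

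**Figure D1:**
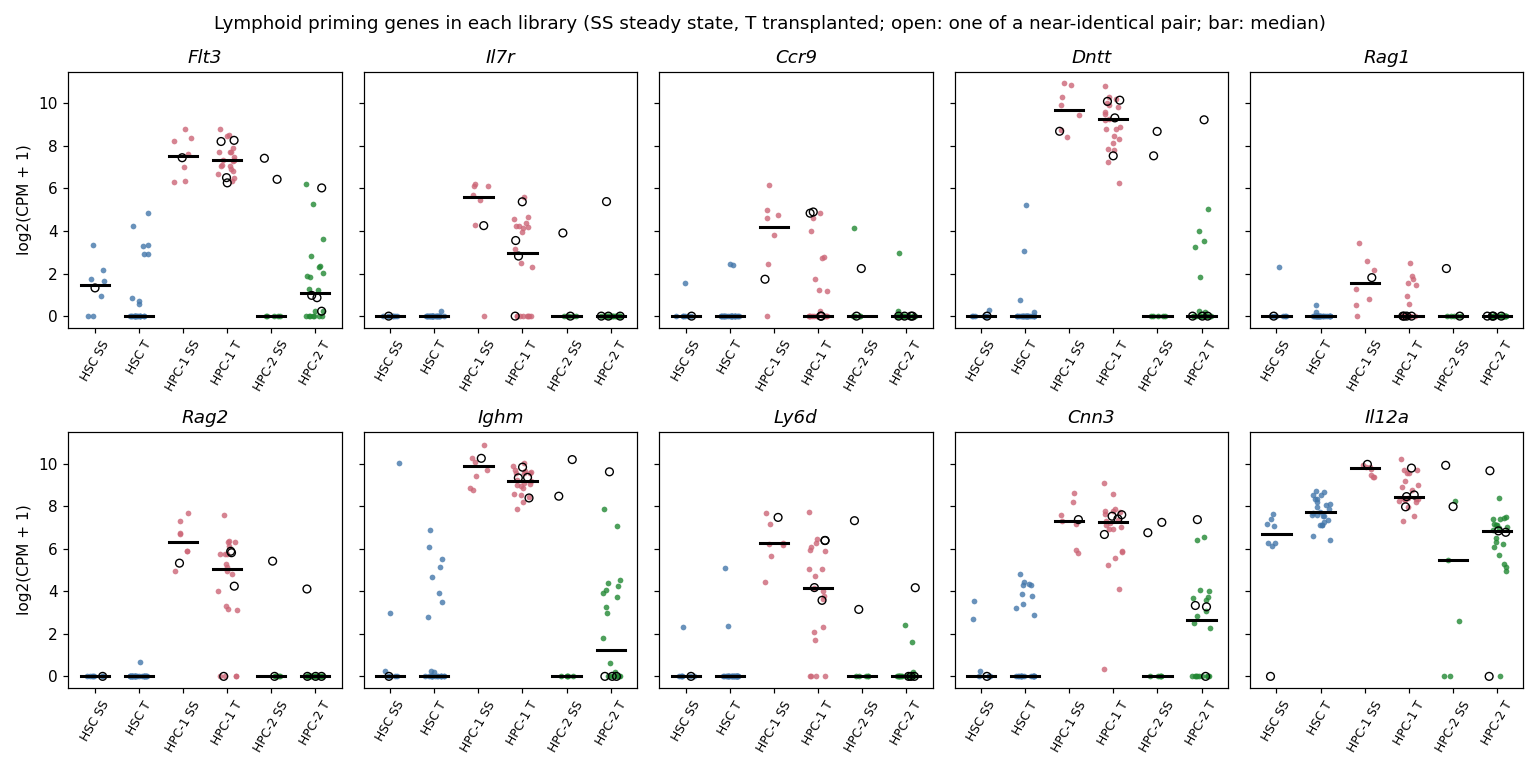
Each panel plots 1 gene as log2(CPM + 1) for every library, in HSC (blue), HPC-1 (red) and HPC-2 (green) at steady state (SS) and after transplant (T); bars are medians and open circles are libraries of near-identical pairs. Counts lay mainly in HPC-1 for 9 genes, while Il12a was found in most libraries of every population, and the high HPC-2 points for Dntt (410, 185 and 599 CPM) are open circles.

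Among the receptors, Flt3 (chromosome 5, 147330741 to 147400489, minus strand), the tyrosine kinase receptor of early lymphoid and dendritic progenitors, separated HPC-1 from HSC in every library. Its lowest, median and highest values were 78.2, 184 and 447 CPM in steady-state HPC-1 and 0, 1.82 and 9.20 CPM in steady-state HSC. Over all weeks it lay between 75.9 and 437 CPM in transplanted HPC-1 and at no more than 27.9 CPM in transplanted HSC, so the groups did not overlap. HPC-1 exceeded HSC by a log2 difference of 6.60 (SE 0.84) at steady state (edgeR quasi-likelihood test with Benjamini-Hochberg adjustment, adjusted p = 9.22e-05). After transplant the difference was 6.22 (SE 0.80; edgeR adjusted p = 9.68e-08).

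Il7r (chromosome 15, 9505788 to 9530176, minus strand), the alpha chain of the interleukin 7 receptor, was at 0, 47.2 and 72.8 CPM (lowest, median and highest) in steady-state HPC-1, with counts in 7 of 8 libraries. It had no count in the 8 steady-state HSC libraries, which puts HPC-1 at least 629-fold higher when HSC are set at a floor of 3 counts over the group. This limit covers counting error only. The 24 transplanted HSC libraries held 1 Il7r count in all. Ccr9 (chromosome 9, 123678439 to 123784330, plus strand), a chemokine receptor that guides progenitors to the thymus, was at 0, 18.0 and 71.1 CPM in steady-state HPC-1. In steady-state HSC 1 of 8 libraries had Ccr9 counts, at 1.95 CPM. Ccr9 shares 1932 exon bases with AC165425.1 on the opposite strand and 269 with Gm17200 on the same strand, which held 0 and 19 counts. Its counts are uncertain where the counting did not use strand or set shared reads aside. Neither gene reached the expression filter for the steady-state test against HSC. After transplant HPC-1 exceeded HSC by log2 differences of 8.50 (SE 1.13; edgeR adjusted p = 1.17e-06) for Il7r and 4.51 (SE 1.20; edgeR adjusted p = 0.00906) for Ccr9. Both genes reached the filter through HPC-1, so these calls are a description.

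In the recombination group, Dntt (chromosome 19, 41029275 to 41059525, plus strand), which encodes the terminal transferase that adds bases at antigen receptor joints, separated HPC-1 from HSC without overlap. It stood at 339, 839 and 1958 CPM (lowest, median and highest) in steady-state HPC-1, while the 8 steady-state HSC libraries held a single count. The ratio of the summed levels was 44930 with a 95% Poisson interval of 8064 to 1775000, which covers counting error only. All 32 HPC-1 libraries (at least 75.8 CPM) lay above all 32 HSC libraries (at most 36.5 CPM). The difference was called at steady state (edgeR adjusted p = 4.73e-11) and after transplant, where the log2 difference was 11.14 (SE 0.81; edgeR adjusted p = 6.14e-15). With so few counts in HSC, Dntt reached the filter through HPC-1, so these calls are a description.

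Rag2 (chromosome 2, 101624718 to 101632529, plus strand), a subunit of the recombinase that cuts antigen receptor genes, was at 30.3, 80.6 and 206 CPM in steady-state HPC-1. All 8 steady-state HSC libraries were at 0, so at the same floor HPC-1 was at least 1400-fold higher, a limit for counting error only. Rag2 was called (edgeR adjusted p = 1.70e-05), though not with a block by replicate number. With no count in HSC, Rag2 reached the filter through HPC-1 alone, so this call is a description. Its partner Rag1 (chromosome 2, 101638282 to 101649501, minus strand) was nearly absent, at 0, 1.96 and 9.85 CPM in steady-state HPC-1 and with 243 counts in the whole series against 8887 for Rag2. Both genes share exon bases with B230118H07Rik (80 on the same strand for Rag1 and 208 on the opposite strand for Rag2), which held 82701 counts, so their counts are uncertain where the counting did not use strand or set shared reads aside. Rag1 did not reach the filter in any of the 4 comparisons between populations.

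Ighm (chromosome 12, 113418558 to 113422730, minus strand), the constant region of the immunoglobulin mu chain, was at 429, 949 and 1910 CPM (lowest, median and highest) in steady-state HPC-1. In steady-state HSC 3 of 8 libraries had counts, and 1 of them, replicate 5, stood at 1038 CPM. That library was the only HSC library as high as any of HPC-1. With it, the log2 difference was 3.04 (SE 1.57; edgeR adjusted p = 0.798), and without it 10.02 (SE 1.18; edgeR adjusted p = 5.29e-05). Replicate 5 was singled out here by its Ighm value, so the smaller p is not a separate test. In replicate 5 a list of 8 mature B cell markers, Cd79b and Igkc among them, summed to 714.5 CPM with 2 of 8 detected, against a median of 59.5 CPM in steady-state HSC. The plasma cell markers Jchain, Sdc1, Tnfrsf17, Mzb1 and Prdm1 summed to 84.5 CPM with 4 of 5 detected, against a median of 1.78 CPM. The part of such cells in the Ighm value was not tested. After transplant all HPC-1 libraries (at least 231 CPM) exceeded all HSC libraries (at most 116 CPM), with a log2 difference of 5.65 (SE 0.86; edgeR adjusted p = 3.83e-06).

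Ly6d (chromosome 15, 74762056 to 74763620, minus strand), a surface protein that marks B-lineage-biased lymphoid progenitors, was at 20.7, 75.5 and 207.5 CPM in steady-state HPC-1 and had counts in 1 of 8 steady-state HSC libraries (3.94 CPM). Cnn3 (chromosome 3, 121426497 to 121458207, plus strand), an actin-binding calponin, was at 54.4, 160 and 392 CPM in HPC-1 and at most 10.6 CPM in HSC. HPC-1 exceeded HSC by 7.76 (SE 1.30; edgeR adjusted p = 0.00173) for Ly6d and 6.61 (SE 1.23; edgeR adjusted p = 0.00575) for Cnn3, on the log2 scale. After transplant the differences were 8.16 (SE 1.27; edgeR adjusted p = 1.71e-05) and 5.22 (SE 0.80; edgeR adjusted p = 4.18e-06), and the libraries of both genes overlapped between the populations.

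Il12a (chromosome 3, 68690644 to 68698547, plus strand), the p35 subunit of interleukin 12 and interleukin 35, had counts in 31 of all 32 HSC libraries, against at most 15 of 32 for any other member. It was at 655, 885 and 1000 CPM in steady-state HPC-1 and at 0, 105 and 200.5 CPM in steady-state HSC, where 7 of 8 libraries had counts. The groups did not overlap at steady state (log2 difference 3.05, SE 0.67, edgeR adjusted p = 0.0236). With a block by replicate number Il12a was not called there. After transplant 18 of 24 HSC libraries lay within the HPC-1 range, and the difference was 1.01 (SE 0.21; edgeR adjusted p = 0.000522).

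Of the 10 genes, 7 reached the filter in HPC-1 against HSC at steady state and 6 were called higher, where 0.721% of all 10270 genes tested were called higher. After transplant 9 reached it and 9 were called higher, against 5.59% of 13322 genes. Without near-identical libraries 6 of 7 and 9 of 9 were called, against 1.37% and 8.64% of all genes in either direction. With a block by replicate number 5 of 7 were called at steady state, where 116 genes were called in all. Rag2 and Il12a were then lost and Ighm was gained. These counts and the single calls behind them are a description, because a gene with counts in HPC-1 alone or mainly there reaches the filter through HPC-1.

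**Figure D2:**
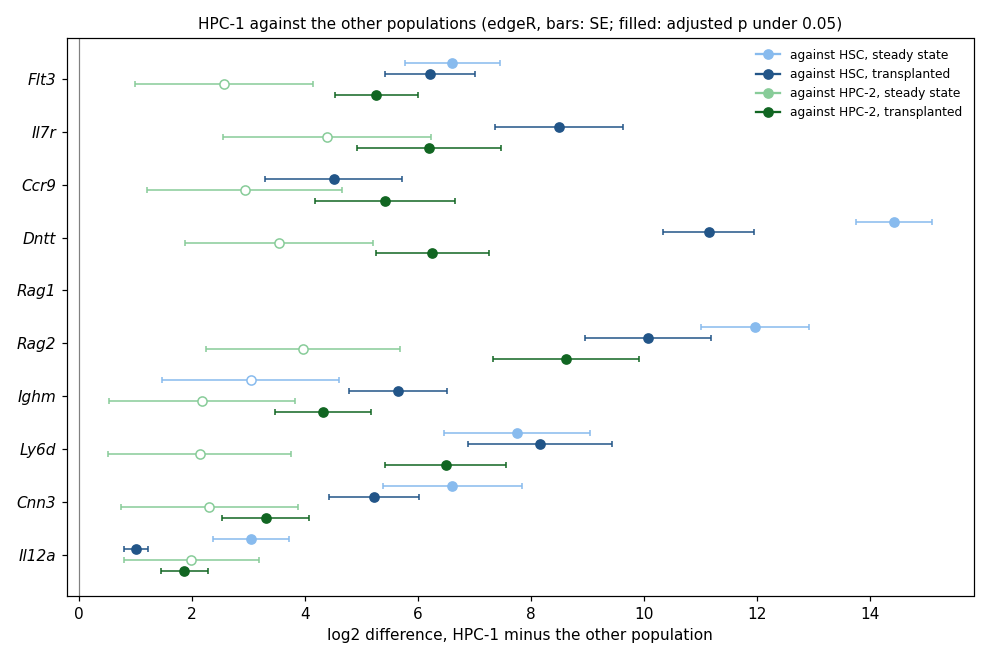
The plot gives the edgeR log2 difference of HPC-1 from HSC (blue) and from HPC-2 (green), at steady state (light) and after transplant (dark), with SE as bars, filled where the adjusted p was under 0.05. The steady-state differences from HPC-2 are open for all 9 genes tested, and Rag1 has no point because it did not reach the filter.

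Between the progenitor populations at steady state, the outcome turned on the near-identical libraries. With all 15 libraries, 9 of the 10 genes were tested and 0 were called, where edgeR called 16 of 10053 genes higher in HPC-1 (0.159%). DESeq2 also called 0 of the members, where it called 1.12% of the genes in either direction. At an unadjusted p under 0.05 there were 3 (Dntt, Il7r and Rag2), against 6.4% of all genes. The HPC-2 libraries stood at 410 (replicate 7) and 185 CPM (replicate 5) for Dntt and at 0 in the other 5, with a log2 difference of 3.54 (SE 1.66; edgeR adjusted p = 0.763). Without near-identical libraries, Dntt, Flt3, Il7r, Rag1, Rag2, Ighm, Ly6d and Cnn3 had no count in the 5 HPC-2 libraries left. Then 7 of 9 genes were called by edgeR (all of these but Rag1, which was not tested), against 9.55% of 10466 genes in either direction, with adjusted p from 1.19e-05 for Ighm to 0.00619 for Il7r. With no count in HPC-2, these 7 reached the filter through HPC-1 alone, so their calls are a description. With HPC-2 at the floor of 3 counts over the group, Dntt was at least 12910-fold, Ighm at least 11150-fold and Flt3 at least 2661-fold higher in HPC-1. These limits cover counting error only, not the spread between libraries. Of those 5 HPC-2 libraries, 4 were among those with fewer than 10000 detected genes, and the part of that in the counts of 0 was not tested.

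After transplant, 24 HPC-2 libraries gave a fuller picture, with 9 of 9 tested genes called higher in HPC-1, against 5.56% of 13091 genes, and 9 called also without near-identical libraries, against 6.79% of genes in either direction. Here too the counts and single calls are a description, because a gene with counts mainly in HPC-1 reaches the filter through HPC-1. Dntt was at 75.8 to 1776 CPM in HPC-1. In HPC-2 it had counts in 8 of 24 libraries, with 599 CPM in 8 weeks replicate 2 (of a near-identical pair) and no more than 31.8 CPM elsewhere (log2 difference 6.26, SE 1.00, edgeR adjusted p = 1.99e-05). Flt3 did not overlap, at 75.9 CPM or more in HPC-1 and 73.7 CPM or less in HPC-2 (5.26, SE 0.73, edgeR adjusted p = 1.98e-06). The smallest differences were those of Il12a (1.87, SE 0.42, edgeR adjusted p = 0.00218) and Cnn3 (3.31, SE 0.77, edgeR adjusted p = 0.00315). Il7r and Rag2 each had counts in 1 transplanted HPC-2 library, the same 8 weeks replicate 2, at 40.8 and 16.2 CPM.

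A list of 46 other genes of early lymphoid development moved partly with these. Against HSC at steady state 2 of its 30 tested genes were called higher in HPC-1, against 0.721% of all 10270 genes, and none lower, against 0.38%. Among the higher was Cd34, a surface sialomucin of progenitors (log2 difference 2.99, SE 0.33, edgeR adjusted p = 1.89e-05). After transplant 5.59% of all 13322 genes were called higher and 4.89% lower against HSC. Of the list, 18 of 36 were called higher and 3 lower (median log2 difference 1.04, against 0.08 over all genes). Those with the smallest p included Cd34, the chromatin organiser Satb1, the inhibitory receptor Btla, the T cell transcription factor Tcf7 and the costimulatory receptor Cd27, with log2 differences of 1.69 for Cd27 to 9.01 for Btla. The 3 lower genes, named after their values were seen, were the transcription factors Hes1 (-2.17), Gata3 (-1.51) and Mef2c (-0.59). Against HPC-2 at steady state 1 of 30, Btla, was called higher (10.11, SE 1.75, edgeR adjusted p = 0.0493), against 0.159% of 10053 genes. Without near-identical libraries 943 of all 10466 genes were called higher than in HPC-2 and 56 lower. Of the list it was 11 of 32 higher and 0 lower (median 2.89, against 0.52 over all genes), among them Satb1 (9.72) and Btla (10.32, SE 1.60, edgeR adjusted p = 0.00251). After transplant 5.56% of 13091 genes were called higher than in HPC-2 and 2.21% lower. Of the list it was 15 of 35 higher and 0 lower (median 1.16, against 0.01 over all genes), among them Cd34 (2.94), the common cytokine receptor gamma chain Il2rg (1.25), Cd27 (2.17), Satb1 (5.56) and the chemokine receptor Ccr7 (7.84). Without near-identical libraries it was 17 of 37 higher and 0 lower, against 643 and 255 of 13220 genes. Against HSC 3 of 31 were then called higher at steady state, Btla (8.93) among them, against 76 of 10487 genes. After transplant it was again 18 higher and 3 lower of 36, against 593 and 545 of 13174 genes. The list was chosen with earlier results of these data known, and its genes can also reach the filter through HPC-1 alone. These counts are therefore a description and no separate support for the members.

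Across the 27 groups of population and week, the genes outside the 10 members whose mean log2(CPM + 1) followed Dntt most closely among 11795 genes were Cox6a2 (Pearson r = 0.98), Satb1 (0.97), Ighv1-77 (0.97), Trbc1 (0.97), Ighv1-74 (0.96) and BC035044 (0.95). Ighv1-77 and Ighv1-74 are variable segments of the immunoglobulin heavy chain and belong to a family of near-identical copies, so their counts are uncertain. Among the members r was 0.96 for Ighm, 0.96 for Flt3, 0.94 for Rag2, 0.90 for Cnn3, 0.89 for Ly6d, 0.88 for Il7r, 0.66 for Ccr9 and 0.63 for Il12a. These correlations rest mainly on the contrast of HPC-1 groups with the others, and they are descriptions. Without near-identical libraries Cox6a2 (0.98) and Satb1 (0.97) led again, Trbc1 stood at 0.94 behind Gm26597 (0.96), and the members ran from 0.65 for Ccr9 to 0.96 for Ighm. Within the 32 HPC-1 libraries r with Dntt was 0.71 for Flt3, 0.70 for Rag2, 0.65 for Il7r and 0.60 for Ighm, and 0.14 for Il12a. Over the 27 HPC-1 libraries outside near-identical pairs these were 0.72, 0.68, 0.66, 0.64 and 0.15.

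After transplant, each HPC-1 library still had counts for at least 6 of the genes, and no member's change from steady state passed the test at any stage. The weeks were taken as 3 stages (weeks 3 and 4 with 6 libraries, weeks 5 to 8 with 9 and weeks 10 to 16 with 9), each set against the same 8 steady-state libraries. edgeR and DESeq2 called 0 of the 10 members in each stage, where edgeR called 0.0162%, 0% and 0% of 12364 genes. DESeq2 called 1.47%, 0.0485% and 0.0809% of them. Without near-identical libraries edgeR also called 0 members in each stage, and 0% of 12110 genes. At an unadjusted p under 0.05 there were 2, 2 and 5 members, against 11.2%, 2.95% and 4.42% of all genes. Fitted changes were below 0 for 8, 10 and 10 of the 10 genes, and for 5966, 6146 and 6163 of all 12364 genes. The members' medians lay between -1.20 and -0.99 on the log2 scale, against 0.00 to 0.03 over all genes. The comparisons share their steady-state libraries, so these counts do not add to one another, and the rarer members reached the filter largely through those libraries.

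**Figure D3:**
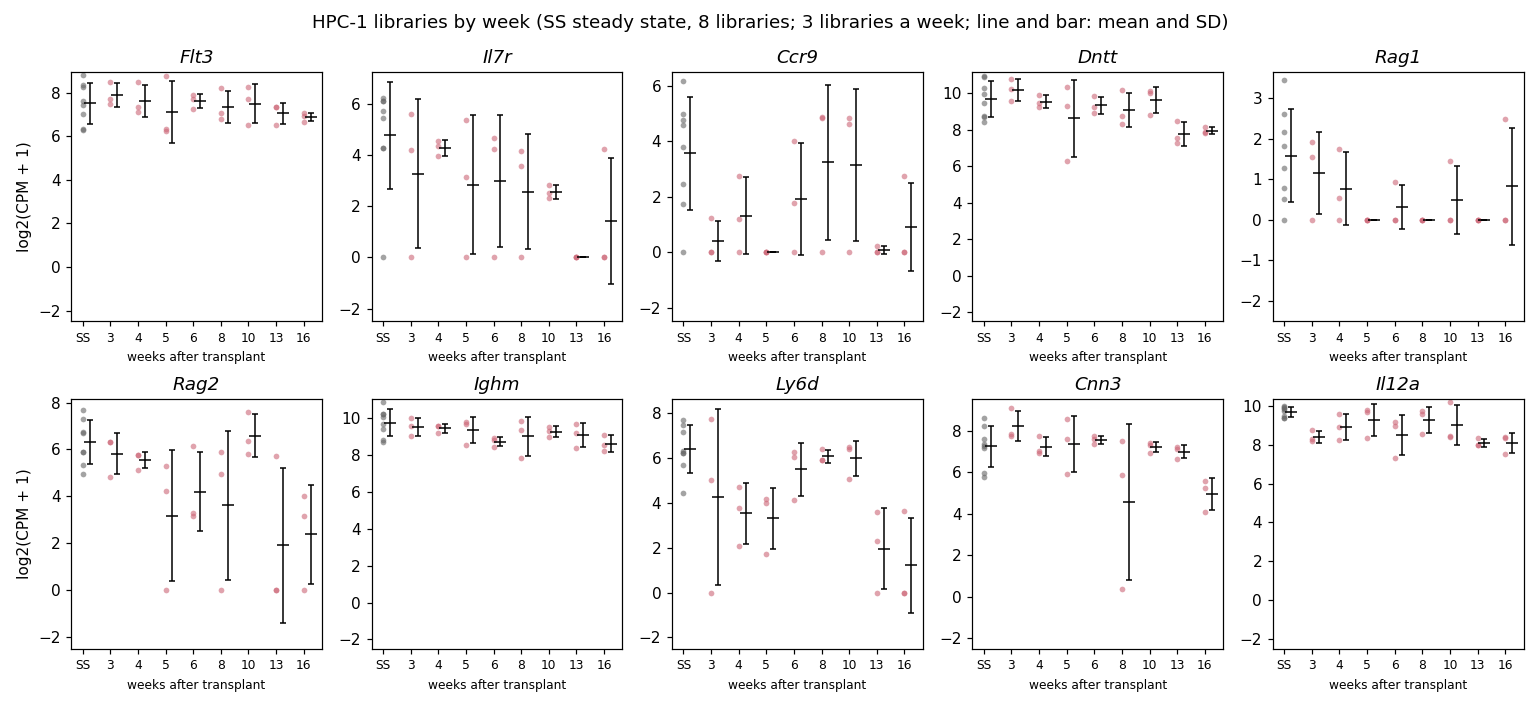
Each panel plots log2(CPM + 1) of 1 gene in the HPC-1 libraries, at steady state (SS, grey, 8 libraries) and at each week after transplant (red, 3 libraries), with the mean and SD. Dntt lies at 770 to 1776 CPM at 3 weeks and at 151 to 358 CPM at 13 weeks, and Il7r has no count at 13 weeks.

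Dntt was at 603, 866 and 1776 CPM (lowest, median and highest) in weeks 3 and 4, at 75.8, 615 and 1274 CPM in weeks 5 to 8 and at 151, 284 and 1093 CPM in weeks 10 to 16, against 339, 839 and 1958 CPM at steady state. The ranges overlapped at every stage. At 13 weeks the 3 libraries stood at 151, 184 and 358 CPM and at 16 weeks at 222.5, 231 and 284 CPM. The log2 change in weeks 10 to 16 was -1.20 (SE 0.42; unadjusted p = 0.00723, edgeR adjusted p = 0.737), and without near-identical libraries -1.49 (SE 0.45; unadjusted p = 0.00241, edgeR adjusted p = 0.577).

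Over the 24 transplanted HPC-1 libraries the fitted slope of Dntt was -0.75 per doubling of weeks (SE 0.21; unadjusted p = 0.00145, edgeR adjusted p = 0.498), and that of Cnn3 was -0.85 (SE 0.28; edgeR adjusted p = 1.00). None of the 9 members tested was called by edgeR, against 0.0424% of 11781 genes, and 3 had an unadjusted p under 0.05 (Dntt, Flt3 and Cnn3), against 3.79% of all genes. Without near-identical libraries the slope of Dntt was -0.81 (SE 0.20; edgeR adjusted p = 0.282) and 0 members were called, against 0.0432% of genes. DESeq2 called Dntt alone (-0.77, DESeq2 adjusted p = 0.0493), against 0.238% of genes.

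With all libraries, Il12a was the member with the smallest p in weeks 10 to 16. It was at 655, 885 and 1000 CPM at steady state, at 290.5, 368.5 and 763 CPM in weeks 3 and 4, at 156, 580 and 886 CPM in weeks 5 to 8 and at 182, 326 and 1175 CPM in weeks 10 to 16. Its log2 change in the last stage was -1.20 (SE 0.33; unadjusted p = 0.000853, edgeR adjusted p = 0.365), and without near-identical libraries -1.07 (SE 0.37; edgeR adjusted p = 0.860). Replicate 1 at 10 weeks held the 1175 CPM, and without it the change was -1.63 (edgeR adjusted p = 0.0244). Il12a was then the 1 gene called among 12327 (0.00811%). The library was singled out here by its Il12a value, so the smaller p is not a separate test.

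Ighm was at 531, 766 and 1035 CPM in weeks 3 and 4, at 231, 493.3 and 934 CPM in weeks 5 to 8 and at 296, 553 and 818 CPM in weeks 10 to 16, against 429, 949 and 1910 CPM at steady state (log2 change in the last stage -0.92, SE 0.26, unadjusted p = 0.00139, edgeR adjusted p = 0.406). In HPC-1 at steady state the mature B cell markers summed to 60.1 to 221 CPM, of which Cd79b made up 54.6 to 176.5 CPM, with Ms4a1 and Cd22 at 0 in every library. In weeks 10 to 16 they summed to 75.8 to 1349 CPM, the highest being replicate 1 at 16 weeks, where Igkc alone stood at 1171 CPM. Over all libraries of that week Ighm ran from 296 to 553 CPM, and the part of B cells in it was not tested.

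Il7r had counts in 7 of 8 steady-state HPC-1 libraries, in 5 of 6 of weeks 3 and 4, in 6 of 9 of weeks 5 to 8 and in 4 of 9 of weeks 10 to 16. Its medians were 47.2, 18.4, 10.8 and 0 CPM, with highest values of 72.8, 47.3, 40.5 and 17.9 CPM. The log2 change in weeks 10 to 16 was -3.57 (SE 1.25; unadjusted p = 0.00716, edgeR adjusted p = 0.737), and groups overlapped because 1 steady-state library was at 0. Flt3 showed the smallest changes, at 0.00, -0.19 and -0.56 (SE 0.36, 0.32 and 0.32), with medians of 184 CPM at steady state and 192, 154 and 132 CPM in the stages.

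Rag2 went from a median of 80.6 CPM at steady state to 53.1, 17.9 and 15.0 CPM, and Ly6d from 75.5 to 19.1, 58.6 and 10.9 CPM, with overlapping ranges at each stage. Their log2 changes in weeks 10 to 16 were -1.12 (SE 0.94; edgeR adjusted p = 0.999) and -2.10 (SE 0.98; edgeR adjusted p = 0.999). Cnn3 was at medians of 160, 217.5, 184 and 122 CPM, with the 3 libraries of week 16 at 16.1, 37.2 and 46.5 CPM. Ccr9 had counts in 7 of 8 steady-state libraries and in 11 of 24 transplanted ones, and Rag1 in 7 of 8 and 7 of 24.

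**Figure D4:**
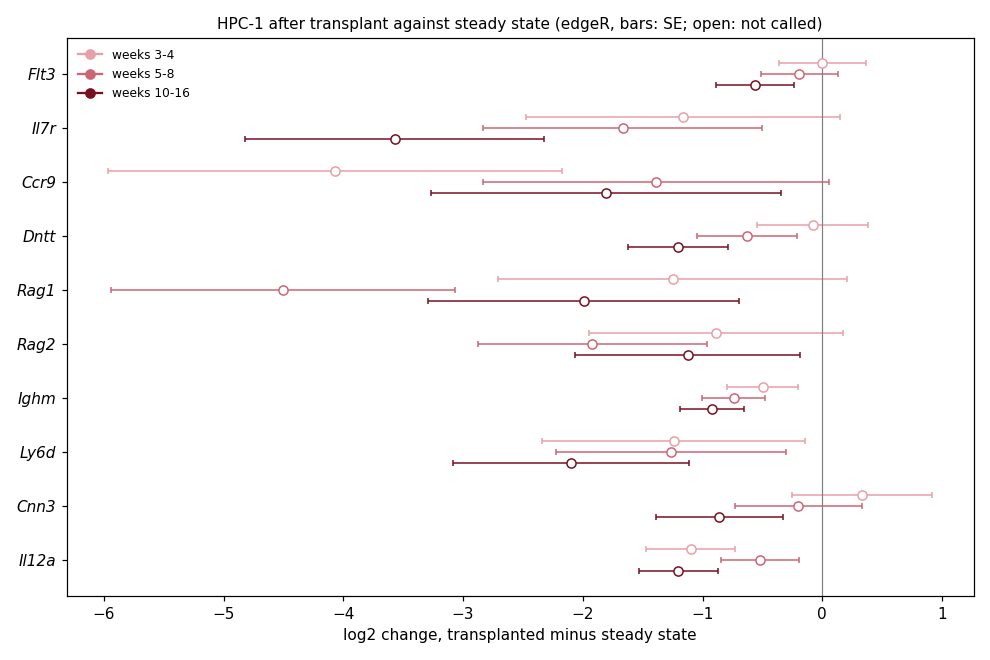
The plot gives the edgeR log2 change of each gene in HPC-1 from steady state in weeks 3 and 4 (light), weeks 5 to 8 (medium) and weeks 10 to 16 (dark), with SE as bars. All points are open because none passed the test, and those of weeks 10 to 16 lie between -3.57 (Il7r) and -0.56 (Flt3).

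Summed markers of other cell types in HPC-1 differed between steady state and weeks 10 to 16, lower in some lists and higher in others with overlapping ranges, and their part in the members' values was not tested. The plasmacytoid dendritic cell markers Siglech, Bst2, Ly6c2, Pacsin1, Klk1 and Cox6a2 summed to 106 to 339 CPM at steady state (median 226, 3 to 5 of 6 detected) and to 93.7 to 226 CPM in weeks 10 to 16 (median 113, 3 or 4 of 6 detected). Siglech and Klk1 were at 0 in all 9 libraries of that stage, and Cox6a2 took medians of 80.4 and 21.6 CPM. The T and NK cell markers Cd3e, Cd3d, Cd3g, Cd8a, Cd4, Trac, Trbc2, Ncr1 and Klrb1c summed to 0 to 55.0 CPM (median 24.5) and to 0 to 33.8 CPM (median 5.19), with Cd3e, Cd8a and Klrb1c at 0 in both groups. The granulocyte and monocyte markers S100a8, S100a9, Ngp, Camp, Ltf, Elane, Mpo, Csf1r and Lyz2 summed to 1112 to 6021 CPM at steady state (median 1361, 2 to 9 of 9 detected) and to 1370 to 8386 CPM in weeks 10 to 16 (median 2303, 6 to 8 of 9 detected). Within that list Mpo, the granule myeloperoxidase, had medians of 211 and 743 CPM. A list of 6 erythroid markers, Klf1 among them, summed to 10.1 to 213 CPM (median 36.1) and to 21.2 to 197 CPM (median 78.4). None of the 35 tested genes of the list of 46 was called in any stage, and their median log2 changes were -0.07, -0.12 and -0.37.

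In HSC few of the genes had counts early after transplant. In weeks 3 and 4 the 6 HSC libraries had counts for 1 to 4 of the 10 genes, and Il7r, Rag2, Ly6d and Ccr9 were at 0 in all 6. With edgeR and DESeq2, 0 of the 4 members tested (Flt3, Ighm, Il12a and Cnn3) were called, where edgeR called 0.0319% of 12541 genes and DESeq2 1.57%. With edgeR 0 had an unadjusted p under 0.05, against 8.01% of genes. Il12a was at 95.8, 197 and 246 CPM against 0, 105 and 200.5 CPM at steady state (log2 change 0.77, SE 0.59, edgeR adjusted p = 0.898), and at 138 to 415 CPM in weeks 5 to 8 and 83.3 to 403 CPM in weeks 10 to 16. The highest values of other members in transplanted HSC were 116 CPM for Ighm, 36.5 CPM for Dntt, 32.8 CPM for Ly6d, 27.9 CPM for Flt3 and 27.1 CPM for Cnn3.

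In HPC-2, 0 of the 5 members tested in weeks 3 and 4 against steady state were called by edgeR or DESeq2. Of 11885 genes edgeR called 0% and DESeq2 1.41%. With edgeR Flt3 alone had an unadjusted p under 0.05, against 5.82% of genes. With all libraries the fitted changes of Dntt, Flt3, Ighm, Il12a and Cnn3 lay between -5.70 and -1.35. Without near-identical libraries they lay between 0.25 and 8.87, and still 0 were called, so no direction is given. In weeks 3 and 4 the 6 libraries stood at no more than 10.5 CPM for Dntt, 3.98 CPM for Flt3, 22.3 CPM for Ighm and 15.7 CPM for Cnn3, and at 34.1, 71.1 and 181 CPM for Il12a.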

How the data were processed

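The authors deposited raw counts per gene, as whole numbers, for 95 libraries. Trimming with Trimmomatic 0.36, alignment to GRCm38 (mm10) with HISAT2 2.0.5, duplicate marking with Picard and counting with featureCounts are named in the submitters' processing notes; strand setting and annotation release are not given in the sources used here. Positions are from GENCODE M21, which held 99.8% of the gene IDs.

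Libraries were grouped by title. For 2 libraries the title read 10k and was taken as 10 weeks, and for 1 HPC-2 library titled 3 weeks the treatment label read untreated. The labels do not say which libraries came from separate animals, and p-values measure only the spread between samples, which may be technical.

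Levels are CPM. Differences were tested on the counts with edgeR 4.0.16 (expression filter, TMM scaling, quasi-likelihood F test) in R 4.3.3, with Benjamini-Hochberg adjustment over all genes of a comparison and calls at an adjusted p under 0.05. The standard error (SE) was taken from the F statistic. Steady-state comparisons used 1 mean per population, transplanted ones the average of 3 stages, and HPC-1, HSC and HPC-2 after transplant 1 mean per stage. The slope was fitted on log2 weeks. Alternatives were DESeq2 1.42.0, its size factors in edgeR, no filter, a replicate block, 1 mean per week, slope per week, each library left out, and no near-identical or low libraries. All 24 transplanted libraries of a population as 1 group and a block by label set for HPC-1 against HPC-2 at steady state were added after seeing the data, as were correlations and list counts without near-identical libraries. The scripts were tested on simulated data. Figures used matplotlib 3.10.9.

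The 10 genes and the lists were chosen with earlier results of these data known. Named are all members, up to 6 called genes of the list of 46 per comparison by smallest p, and the 6 genes outside the members most correlated with Dntt among those with a group mean of at least 10 CPM. Some genes of these lists are not reported here by name; they are in the counts and sums.

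The column labels number libraries consecutively over HPC-1, HPC-2 and HSC, in sets of 3, but do not say what a set shares, so sets and replicate numbers were not taken as pairs.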

Additional observations from a re-analysis of the deposited data

Results flagged for a closer look

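On the scale of log2(CPM + 1), chosen after the data were seen, 57 groups of a member, population and stage with counts in at least 4 libraries were searched for a library far from the others, and 10 were found. The cutoff gives about 1 in 20 by chance for normally distributed values only. Groups with counts of 0 are not such, and the groups share libraries, so that rate is no measure here. In 4 of the 10 the library belongs to a near-identical pair. These were the library labelled HPC-2 8 weeks replicate 2, high for Cnn3 (164 CPM), Ighm (784 CPM) and Il12a (812 CPM), and HSC steady-state replicate 1, with no Il12a count (0 CPM) where the other 7 libraries ran up to 200.5 CPM. The first is paired with HPC-1 5 weeks replicate 1, where these genes stood at 193, 912 and 886 CPM.

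In HPC-1, Dntt was low in 5 weeks replicate 2 (75.8 CPM, group median 615), Cnn3 was low in 8 weeks replicate 2 (0.281 CPM, group median 184), and Il12a was high in 10 weeks replicate 1 (1175 CPM, group median 326). Il7r had no count (0 CPM) in steady-state replicate 8 or in 3 weeks replicate 3, where the group medians were 47.2 and 18.4 CPM. In HPC-2, Flt3 was high in 4 weeks replicate 3 (3.98 CPM, group median 0.182).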

How the results depend on the processing

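Among the 10 counts of called members, 8 stayed within 1.5 times of the reported count under every alternative other than those that left out 1 library. In HPC-1 against HPC-2 at steady state the count went from 0 to 7 without near-identical libraries, where calls over all genes went from 17 to 999. It went from 0 to 2 (Il7r and Rag2) without HPC-2 replicate 7. Leaving out each library in turn gave 0 to 2 members, with 0 to 352 of all genes called. For the slope in HPC-1 the count of members went from 0 to 1 with no filter (Dntt, edgeR adjusted p = 0.0294) and to 1 with DESeq2. Over all genes 1272 and 28 were then called. In HPC-1 at weeks 10 to 16 leaving out each library gave 0 to 1. The cause of these shifts was not tested. No called log2 change of a member turned its sign. With the replicate block, members called were 5 in HPC-1 against HSC at steady state, where Rag2 (adjusted p = 0.0589) and Il12a (adjusted p = 0.0853) were lost and Ighm (adjusted p = 0.0166) was gained; 0 against HPC-2 at steady state; 9 in both transplanted comparisons; and 0 in the others. The block rests on replicate numbers, which match the sets of the column labels except in steady-state HPC-2. Blocking by set there also called 0 members (Dntt, adjusted p = 0.209). Deviations from the group means correlated over 0.1 in 6 of 8 steady-state sets of HPC-1 with HSC (0.03 to 0.24) and in 0 of 7 with HPC-2 (-0.07 to 0.04), and 5 of 8 HPC-1 and 3 of 8 HSC libraries correlated best with their own set. Taking all transplanted libraries of a population as 1 group also called 0 members in HPC-1, HSC and HPC-2.

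Over all genes, calls moved by more than 1.5 times in 9 of the 10 comparisons. HPC-1 against HSC at steady state gave 113 genes and 102 to 431 under the alternatives (279 with DESeq2, 431 without low libraries), and HPC-1 against HPC-2 gave 17 and 0 to 999. HPC-1 against HPC-2 after transplant gave 1017 and 838 to 1655, the highest with no filter. The 3 stages of HPC-1 gave 2, 0 and 0 genes, with at most 182, 6 and 10 (DESeq2). The slope gave 5 and 2 to 1272, the highest with no filter. HSC gave 4 and 0 to 197, and HPC-2 gave 0 and up to 167, the highest in both with DESeq2.

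For Il7r and Rag2 a count of 0 over the 8 steady-state HSC libraries allows up to 3 counts, or 0.0681 CPM. These limits cover counting error only. PCR copies are counted as reads.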
